A study of Mus musculus with 8 samples.

Results

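Proximal T cell receptor signalling was described through 9 genes (Lck, Zap70, Lat, Lcp2, Fyn, Txk, Ptpn22, Grap2 and Themis), taken by their symbols from the 37979 genes of the deposited table, and each was listed once. Their levels were compared between pericytes and smooth muscle cells (SMCs) sorted from hindlimb muscle of Ai14+/-;SM22α-Cre+ mice of both sexes, aged 3 to 4 months, with 4 RNAseq libraries of each cell type. All 8 libraries shared this genotype, in which Cre under the SM22α promoter leaves a lasting tdTomato label in cells that have used the promoter, and pericytes were the PDGFRβ+ cells without the label. CD31+ endothelial cells, CD45+ hematopoietic cells and dead cells were gated out, and several sorts were pooled into each library. Any PDGFRβ+ pericyte that had used the SM22α promoter would therefore be sorted as an SMC.

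When a T cell meets its antigen, the kinase LCK phosphorylates the CD3 chains of the receptor, and the kinase ZAP70 docks on them. ZAP70 then phosphorylates the membrane scaffold LAT and the adaptor SLP-76 (the product of Lcp2), which is tied to LAT by GADS (the product of Grap2), and Tec family kinases such as TXK act on the phospholipase assembled there. FYN is a relative of LCK, PTPN22 is a phosphatase that removes activating phosphates from LCK and ZAP70, and THEMIS is an adaptor needed for the development of T cells in the thymus. These genes are known for T cells, and several also serve other blood cells: natural killer (NK) cells use most of them, mast cells and platelets use Lat and Lcp2, macrophages use Lcp2, and Fyn is used in many tissues.

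The FPKM values (fragment counts scaled for transcript length and for the mapped reads of the library) summed to 690247 to 782014 in pericyte replicates 1, 3 and 4, to 656405 to 737839 in SMCs, and to 1190440 in pericyte replicate 2, which stood apart. Depth relative to the other libraries was 0.866 to 1.04 in pericytes and 0.988 to 1.07 in SMCs, and the number of reads behind a value is unknown. A gene was called higher in a group when its limma q value was below 0.05 and its log2 fold change, taken on FPKM + 1, was beyond 2. Markers of lymphocytes went with the pericyte label: 8 of 9 T cell markers, 7 of 7 NK cell markers, 6 of 7 B cell markers and 6 of 6 pan-leukocyte markers were called higher in pericytes. The T cell markers summed to 1484 to 2343 FPKM in pericytes and 22.3 to 49.7 FPKM in SMCs, and the NK cell markers to 1082 to 2559 and 20.7 to 26.5 FPKM. The 10 pericyte markers were all detected and summed to 55.0 to 134 FPKM in pericytes and 140.1 to 469 FPKM in SMCs. Limma called 0 of them in either direction (6 were lower in pericytes at an unadjusted p below 0.05 and 2 at a q value below 0.05). With the replicate number fitted as a block, 7 were lower in pericytes at a q value below 0.05, and 1 (Pdgfrb) was called higher in SMCs. Ptprc, which encodes CD45, the surface protein used to gate out hematopoietic cells, had 80.6 to 230.3 FPKM in pericytes and 4.34 to 11.9 FPKM in SMCs. Pdgfrb, the gene of the sorted surface protein, had 3.21 to 17.6 FPKM in pericytes and 15.6 to 91.5 FPKM in SMCs, and Pecam1, which encodes CD31, had 25.0 to 59.7 and 102 to 301 FPKM. Tagln, the gene of SM22α, was measured at 165 to 551 FPKM in pericytes and 499.7 to 1569 FPKM in SMCs, and Acta2, another contractile gene, at 329.8 to 1258 and 1158 to 3291 FPKM. SMC markers (892 to 2810 FPKM in pericytes, 2767 to 8237 in SMCs) overlapped through pericyte replicate 2. Of the 8 SMC markers, Tagln and Acta2 included, limma called 0 in either direction, and 4 were lower in pericytes at an unadjusted p below 0.05. Of 7 fibroblast markers (summed 801 to 1651 FPKM in pericytes and 3338 to 4537 in SMCs), 6 were called higher in SMCs, and Dcn, at 509 to 1165 FPKM in pericytes and listed at 0 in every SMC library, was called higher in pericytes. Platelet markers summed to 15.0 to 38.9 FPKM in pericytes and 50.0 to 131 FPKM in SMCs through Pf4 and Itga2b, the 2 of 6 tested that were called higher in SMCs, while the median log2 fold change of the list was 0.05, Itgb3 (0.98) and Ppbp (0.62) were not called, and Gp6 was listed at 0 throughout. Macrophage markers summed to 68.5 to 150.0 FPKM in pericytes and 156 to 294 FPKM in SMCs, mainly through C1qa (3.82 to 21.9 and 59.5 to 104 FPKM), and 2 of 7 (C1qa and Mrc1) were called higher in SMCs, while Cd68 (log2 fold change 0.11) and Csf1r (-0.76) passed neither threshold. Endothelial markers (76.5 to 124 FPKM in pericytes, 265 to 899.5 in SMCs) had higher sums in SMCs, with 4 of 7 called, and mast cell markers (42.8 to 71.4 and 3.27 to 19.5) in pericytes, with 1 of 7 called. The part of other cell types in the results given here was not tested, and in bulk RNA fewer cells of a type and less RNA per cell cannot be told apart.

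The 9 genes lie apart from each other on NCBI Build 37. Lck (ENSMUSG00000000409) spans chr4:129225588-129250885 on the minus strand, Zap70 (ENSMUSG00000026117) chr1:36818695-36839663 on the plus strand, Lat (ENSMUSG00000030742) chr7:133507346-133513057 on the minus strand and Fyn (ENSMUSG00000019843) chr10:39088661-39285187 on the plus strand. Txk (ENSMUSG00000054892) chr5:73087217-73144012 is on the minus strand, and Lcp2 (ENSMUSG00000002699) chr11:33946920-33992295, Ptpn22 (ENSMUSG00000027843) chr3:103663718-103716170, Grap2 (ENSMUSG00000042351) chr15:80453935-80480989 and Themis (ENSMUSG00000049109) chr10:28388166-28603624 are on the plus strand. The 250 bases before the annotated start of each gene were searched for the letters of 5 motifs on both strands. These motifs were those of ETS, RUNX, TCF/LEF and NFAT factors and the TATA box. The stretches of Lck and Lat, which had the 2 largest fold changes on the log2(FPKM + 1) scale (by the ratio of mean FPKM, Txk and Lat), and of Fyn, which had the smallest on both, are shown 5′ to 3′ in the direction of transcription and ending at the base before the start, with the matched letters in capitals.
Lck, chr4:129250886-129251135, minus strand: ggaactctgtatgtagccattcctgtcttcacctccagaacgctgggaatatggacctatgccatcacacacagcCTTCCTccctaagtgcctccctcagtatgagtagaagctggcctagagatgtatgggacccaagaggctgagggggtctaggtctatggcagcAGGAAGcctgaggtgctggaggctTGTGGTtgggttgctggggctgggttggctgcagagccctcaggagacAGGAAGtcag
Lat, chr7:133513058-133513307, minus strand: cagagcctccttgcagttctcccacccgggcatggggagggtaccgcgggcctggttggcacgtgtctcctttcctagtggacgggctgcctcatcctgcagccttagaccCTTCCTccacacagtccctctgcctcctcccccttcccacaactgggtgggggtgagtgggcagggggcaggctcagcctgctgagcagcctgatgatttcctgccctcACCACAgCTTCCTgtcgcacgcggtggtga
Fyn, chr10:39088411-39088660, plus strand: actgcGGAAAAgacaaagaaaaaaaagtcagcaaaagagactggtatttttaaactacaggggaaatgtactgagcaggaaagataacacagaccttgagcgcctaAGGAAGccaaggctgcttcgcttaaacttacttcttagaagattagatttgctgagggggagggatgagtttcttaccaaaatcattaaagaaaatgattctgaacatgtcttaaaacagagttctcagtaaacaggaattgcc
The ETS letters AGGAAG or their reverse complement were found before 7 of the 9 genes (all but Grap2 and Themis) and before 29.0% of 22375 protein-coding genes. Both Lck and Lat held the RUNX letters TGTGGT, which 12.8% of the protein-coding genes held in this stretch. Those of TCF/LEF factors, CTTTGA, stood before Zap70, Lcp2 and Txk (13.4% of genes). Zap70, Lcp2 and Fyn had the NFAT letters GGAAAA there (20.7% of genes), and 0 of the 9 had TATAAA (12.3%). No base shown belongs to the matches of 2 motifs. A match describes the letters of 1 annotated start per gene, and no other start was examined.

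Among the kinases, Lck had the highest level of the 9 genes in both groups. It had 491, 465, 426 and 350.3 FPKM in pericyte replicates 1 to 4, and 7.69, 9.19, 5.27 and 8.20 FPKM in SMC replicates 1 to 4. The groups did not overlap, and the lowest pericyte library was far above the highest SMC library. The difference in log2(FPKM + 1) was 5.67 with a standard error of 0.17 (limma q = 4.9e-06), and the mean FPKM was 57.1-fold higher in pericytes. Lck ranked 331st by mean FPKM among the 27414 genes tested in pericytes and 7389th in SMCs.

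Zap70, the kinase that binds phosphorylated CD3 chains, had 52.9, 54.1, 73.7 and 61.9 FPKM in pericytes and 0.445, 1.54, 1.72 and 1.56 FPKM in SMCs. SMC replicate 1 was low among the SMC libraries, and the groups did not overlap. Zap70 had a log2 fold change of 4.76 with a standard error of 0.22 (limma q = 2.4e-05) and a 46.0-fold higher mean FPKM. Txk, a Tec family kinase, had 77.7, 90.6, 154 and 100.4 FPKM in pericytes and 0.745, 1.13, 1.24 and 2.23 FPKM in SMCs. Pericyte replicate 3 was the highest, and the groups did not overlap (log2 fold change 5.50, standard error 0.26, limma q = 2.5e-05). Its mean FPKM was 79.1-fold higher in pericytes, the largest ratio of means of the 9.

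Fyn, the other Src family kinase of the receptor, differed least. It had 14.7, 22.7, 15.5 and 17.0 FPKM in pericytes and 6.73, 5.62, 5.49 and 4.53 FPKM in SMCs. Every pericyte library was above every SMC library, and the mean FPKM was 3.12-fold higher. Its log2 fold change, 1.48 with a standard error of 0.16 (limma q = 6.9e-04), passed the q threshold and not the fold threshold. Of 3 annotated genes that overlap Fyn on the opposite strand, Gm16365 had 2.37 to 7.81 FPKM in SMCs and 0 to 1.28 FPKM in pericytes. Whether reads were counted by strand is not given in the sources used here, so reads of overlapping genes may be shared.

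Among the adaptors, Lat, the scaffold on which the signal is assembled, had the largest log2 fold change. It had 276, 433, 227 and 223 FPKM in pericytes and 4.25, 6.08, 2.61 and 4.83 FPKM in SMCs. Pericyte replicate 2 was the highest, and the groups did not overlap (log2 fold change 5.72, standard error 0.28, limma q = 2.7e-05). Grap2, which links LAT to SLP-76, had 17.2, 19.3, 16.4 and 15.0 FPKM in pericytes and 0.332, 0.156, 0.122 and 0.482 FPKM in SMCs. The libraries of the groups lay apart, with a log2 fold change of 3.83 and a standard error of 0.12 (limma q = 4.9e-06), while its mean FPKM was 62.3-fold higher, since adding 1 to FPKM shrinks the fold change of a gene with low values.

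Lcp2, the gene of SLP-76, had 47.0, 41.0, 54.2 and 43.3 FPKM in pericytes and 5.20, 7.02, 5.02 and 8.49 FPKM in SMCs. The groups did not overlap, and the 7.21-fold higher mean FPKM was, after Fyn, the smallest ratio of the 9 (log2 fold change 2.69, standard error 0.17, limma q = 6.9e-05). Themis had 23.1, 11.1, 20.2 and 21.8 FPKM in pericytes and 0.410, 0.328, 0.521 and 0.735 FPKM in SMCs. Pericyte replicate 2 was about as far below the other pericyte libraries in Themis as it was above them in Lat, and it still exceeded every SMC library (log2 fold change 3.70, standard error 0.23, limma q = 6.5e-05).

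Ptpn22, the phosphatase of the group, had 193, 111, 174 and 115 FPKM in pericytes and 3.41, 3.42, 2.54 and 2.60 FPKM in SMCs. The groups did not overlap, with a 49.6-fold higher mean FPKM in pericytes (log2 fold change 5.19, standard error 0.21, limma q = 1.3e-05). Gm15472, which overlaps Ptpn22 on the same strand, had 0.651 to 1.65 FPKM in pericytes and 0 to 0.317 FPKM in SMCs, and reads may be shared here too. The gene that encodes a brake on the receptor was thus higher in the same libraries as the kinases it acts on.

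**Figure D1:**
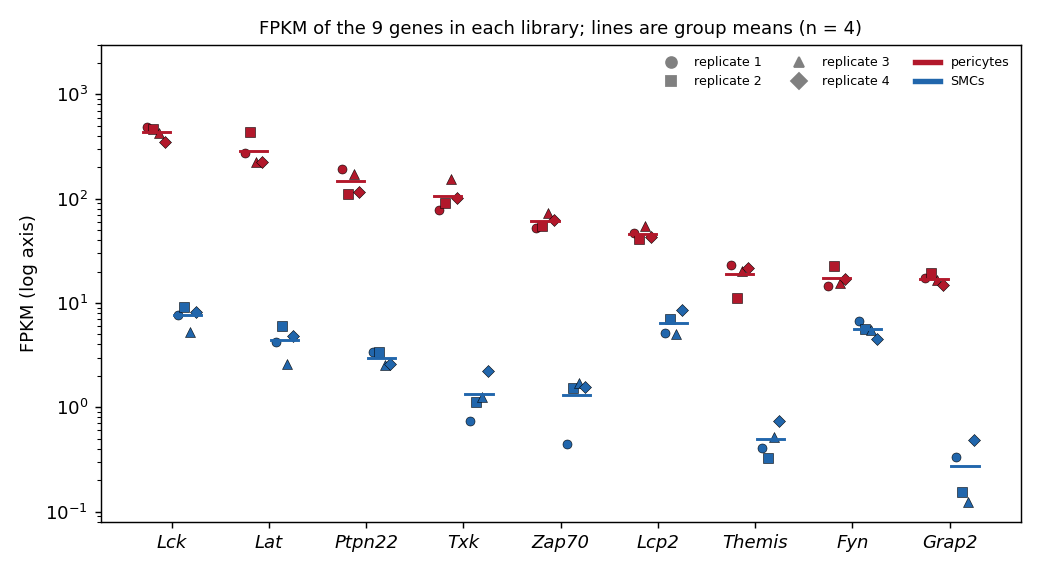
FPKM (log axis) of each of the 9 genes in the 4 pericyte libraries (red) and the 4 SMC libraries (blue), with symbols for the replicate number and lines for group means. No gene overlaps between groups, and the distance between groups is smallest for Fyn (3.12-fold) and Lcp2 (7.21-fold).

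In all, 8 of the 9 genes were called higher in pericytes and 0 in SMCs by limma, where 3.24% of the 27414 genes tested were called higher in pericytes and 2.66% higher in SMCs. No gene of the 9 was lower in pericytes at an unadjusted p below 0.05, where 4432 of the 27414 genes tested were. At a q value below 0.05 with no fold threshold, 9 of 9 were higher in pericytes, against 10.6% of all genes, and 11.2% of all genes were higher in SMCs. Every pericyte library was above every SMC library for 9 of 9 genes, against 12.1% of all genes. The median log2 fold change of the 9 was 4.76, beside 0.02 over all genes tested. Without pericyte replicate 2, the library with the largest summed FPKM, 8 of the 9 were again called, and Fyn again had the smallest log2 fold change (1.35).

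Levels in pericytes ran from Lck (433 ± 61.5 FPKM, SD, n = 4) and Lat (289.6 ± 98.7) through Ptpn22 (148 ± 41.3), Txk (106 ± 33.7), Zap70 (60.6 ± 9.55) and Lcp2 (46.4 ± 5.78) to Themis (19.1 ± 5.46), Fyn (17.5 ± 3.59) and Grap2 (17.0 ± 1.80). The genes fell into steps: Lck and Lat overlapped each other, as did Ptpn22 and Txk, Zap70 and Lcp2, and Themis, Fyn and Grap2, while each step lay apart from the next. In SMCs the order was Lck (7.59 ± 1.66 FPKM, SD, n = 4), Lcp2 (6.43 ± 1.64), Fyn (5.59 ± 0.904), Lat (4.44 ± 1.44) and Ptpn22 (2.99 ± 0.490), with all neighbours overlapping. Txk (1.34 ± 0.634), Zap70 (1.32 ± 0.587), Themis (0.499 ± 0.177) and Grap2 (0.273 ± 0.167) followed below them. Fyn and Lcp2, which were next to last and sixth in pericytes, thus had a higher mean than Lat in SMCs. Lcp2 was above Lat in every SMC library. Fyn was below Lat in SMC replicate 2 (5.62 against 6.08 FPKM) and SMC replicate 4 (4.53 against 4.83 FPKM).

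Each gene was next set beside a gene of the same protein family that works in other cells or in many cells, as the difference of log2(FPKM + 1) within a library. Pairs were fixed for 9 genes and measured for 8, since the table lists no row under the symbol of the Themis relative, Themis2. In 7 of 8 pairs all pericyte libraries had a larger difference than any SMC library. The exact permutation p (two-sided) was 0.0286 for each of these, the smallest that 4 against 4 libraries allow, and 0.0327 after adjustment over 8 pairs. When every gene tested was set against the same 8 relatives, 9.85% of the differences were apart in this way, from 0.602% against Syk to 15.9% against Ptpn12 and 53.5% against Yes1.

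Lck exceeded Lyn, the Src family kinase of B cells and myeloid cells, by 2.82 ± 0.19 (log2, SD, n = 4) in pericytes and lay below it by 1.24 ± 0.35 in SMCs, a shift of 4.06. Lyn itself was higher in pericytes, at 60.2 ± 5.47 FPKM (SD, n = 4) against 19.2 ± 3.48 FPKM in SMCs (limma q = 3.0e-04), without passing the fold threshold. Zap70 against Syk, its counterpart in B cells and myeloid cells, shifted by 1.75, the smallest of the 7. Syk was called higher in pericytes as well, with a 10.4-fold higher mean FPKM (limma q = 0.00239). Lat against Lat2, the scaffold of B cells and mast cells, shifted by 2.43. Grap2 against Grb2, a widely used adaptor, shifted by 2.42, and by 3.98 when 0.1 was added to FPKM in place of 1.

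Of the other 3 pairs, 2 had a relative that was not higher in pericytes. Txk against Tec shifted by 4.54, and Tec had 18.7 to 32.6 FPKM in pericytes and 9.78 to 14.7 FPKM in SMCs. Ptpn22 against Ptpn12, a related phosphatase of many tissues, shifted by 5.82, and Ptpn12 had 3.02 to 9.62 FPKM in pericytes and 6.67 to 12.4 FPKM in SMCs. Fyn against Yes1, a widely used Src family kinase, shifted by 3.14. Yes1 had 1.34 to 5.66 FPKM in pericytes and 6.02 to 14.7 FPKM in SMCs, with the groups apart in the direction opposite to Fyn, and most genes tested shifted the same way against it.

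Lcp2 against Blnk, the SLP-76 relative of B cells, was the exception. The difference was -0.68 ± 0.21 (log2, SD, n = 4) in pericytes and -0.54 ± 0.85 in SMCs, and the groups overlapped (-0.92 to -0.45 and -1.61 to 0.42, exact permutation p = 0.714, two-sided, also after adjustment). Blnk was called higher in pericytes with a log2 fold change of 2.83 (limma q = 4.9e-04), beside 2.69 for Lcp2. The shift of -0.14 turned to 0.18 without SMC replicate 4.

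**Figure D2:**
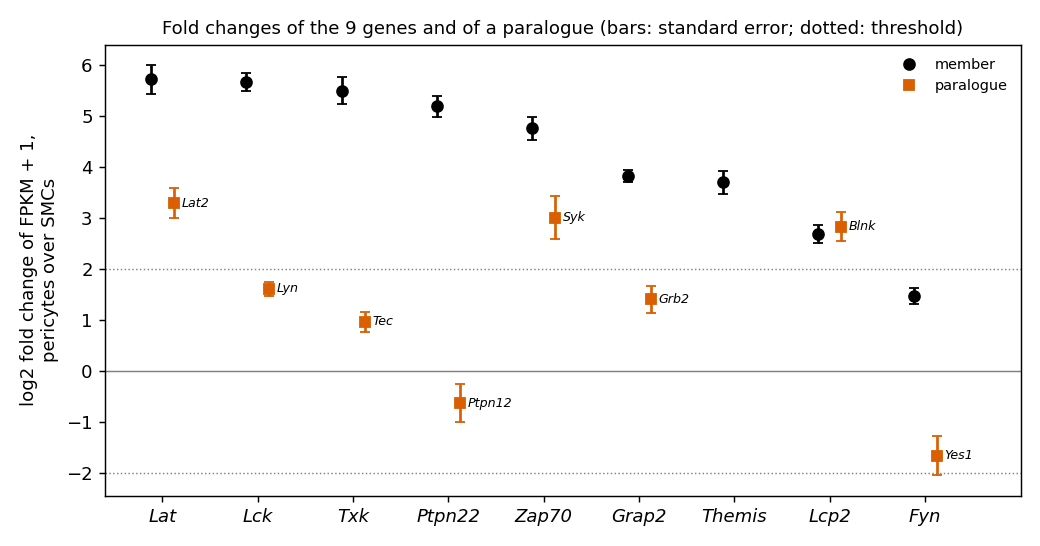
Log2 fold change of FPKM + 1, pericytes over SMCs, with the limma standard error, for the 9 genes (black circles) and a paralogue of 8 of them (orange squares, named), with dotted lines at the fold threshold. The 9 genes lie between 1.48 and 5.72, and the named paralogues between -1.66 (Yes1) and 3.30 (Lat2).

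Over 18 paralogues of these families, 10 were called higher in pericytes and 1 in SMCs (3.24% and 2.66% of all genes), with a median log2 fold change of 2.09. The Tec family split: Btk, the Tec kinase of B cells, was called higher in pericytes with a log2 fold change of 3.15 (limma q = 1.1e-04). Bmx, which is used in endothelial and myeloid cells, was called higher in SMCs, at 9.71 ± 3.26 FPKM (SD, n = 4) against 1.49 ± 0.473 FPKM in pericytes (log2 fold change -2.07, limma q = 0.00110). This call of Bmx was lost without pericyte replicate 4 and without SMC replicate 4. In the Src family, Blk, which is used in B cells, had 37.1 to 49.6 FPKM in pericytes and 0.374 to 1.80 FPKM in SMCs, while Src itself was under 1.1 FPKM in every library.

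The rest of the pathway was followed in 56 other genes grouped by role, among which limma called 37 higher in pericytes and 0 in SMCs, where 3.24% and 2.66% of all genes were called. At a q value below 0.05 without the fold threshold, 41 were higher in pericytes and 0 in SMCs. With an unadjusted p below 0.05 the numbers were 48 and 1, beside 4279 and 4432 of the 27414 genes tested. The median log2 fold change of the 56 was 2.96, beside 0.02 over all genes tested.

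Receptor chains and coreceptors were called in 10 of 11 cases, with a median log2 fold change of 5.69. Cd8b1, a coreceptor chain of cytotoxic T cells, had 190 to 368 FPKM in pericytes and 1.90 to 2.61 FPKM in SMCs (log2 fold change 6.28). Cd4, the coreceptor of helper T cells, was the gene not called. It had 26.3, 11.2, 40.8 and 43.5 FPKM in pericytes and 0.634, 0.914, 5.09 and 20.2 FPKM in SMCs (log2 fold change 2.65, limma q = 0.0747). The groups overlapped through SMC replicate 4 and pericyte replicate 2. With the replicate number fitted as a block, Cd4 was called higher in pericytes (limma q = 0.0317).

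Kinases, phosphatases and their partners were called in 6 of 9 cases. Besides Ptprc they included Sh2d2a, an adaptor that binds LCK (log2 fold change 5.14), Ptpn6, the phosphatase SHP-1 (3.36), Csk, the kinase that holds LCK inactive (2.71), and Pag1, which recruits CSK to the membrane (2.41). Ptpn2 (0.51) passed the q threshold alone, and Unc119 (0.99, limma q = 0.137) and Ptpn11 (-0.20, limma q = 0.709) passed neither.

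Adaptors and exchange factors were called in 11 of 15 cases. Skap1, an adaptor for integrin activation after receptor contact, led with 238 to 396 FPKM in pericytes and 2.65 to 5.21 FPKM in SMCs (log2 fold change 5.93). It was followed by Sit1 (4.47), Tespa1 (4.13, listed under an older symbol), Sla (4.04), Trat1 (3.87) and Lax1 (3.85), all adaptors of lymphocytes. The 4 genes not called were Grb2 (1.41, which passed the q threshold), Sos1 (0.20), Nck2 (-0.09) and Nck1 (-0.32), all of which are used in many tissues.

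Effectors downstream of the receptor were called in 7 of 15 cases, with a median log2 fold change of 1.69. They included Malt1 (2.32), of the path to NF-κB, Prkcq (2.61), the kinase that feeds it, Rasgrp1 (3.65), which activates RAS, Pik3cd (3.49), a lipid kinase subunit of leukocytes, Nfatc3 (2.66) and Dgka (2.44), which removes diacylglycerol. Plcg1, the phospholipase that LAT recruits, had 4.51 to 10.8 FPKM in pericytes and 4.19 to 5.97 FPKM in SMCs (log2 fold change 0.52, limma q = 0.171). Stim1 (0.61), Nfatc2 (0.27) and Dgkz (0.78) were also not called. Among 6 ubiquitin ligases and negative regulators, Ubash3a (3.71), Dok2 (2.99) and Cblb (2.09) were called, and Ubash3b (1.34), Cbl (0.99) and Dok1 (0.03) were not.

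**Figure D3:**
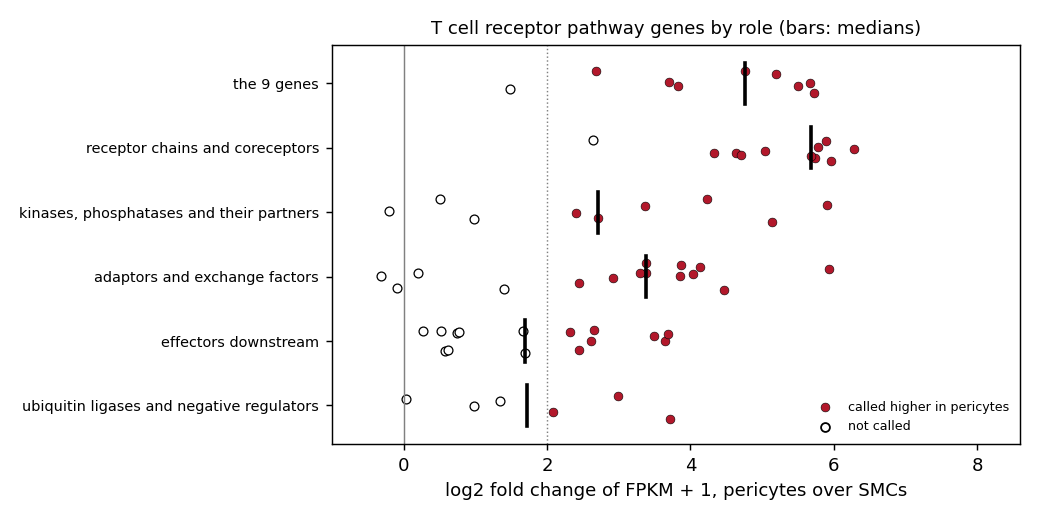
Log2 fold change of FPKM + 1, pericytes over SMCs, for the 9 genes and the 56 other genes of the pathway by role, 1 point per gene, filled where called higher in pericytes, with bars at the medians and a dotted line at the fold threshold. The medians are 4.76 for the 9 genes, 5.69 for receptor chains and coreceptors and 1.69 for effectors downstream.

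The levels were then divided, library by library, by the mean FPKM of the CD3 chains Cd3d, Cd3e and Cd3g, which was 228 to 437 in pericytes and 2.99 to 5.62 in SMCs. For 7 of the 9 genes the ratio overlapped between groups. Lat was 0.991 ± 0.156 of the CD3 mean (SD, n = 4) in pericytes and 1.11 ± 0.292 in SMCs, Grap2 was 0.0608 ± 0.0129 and 0.0676 ± 0.0372, and Lck was 1.57 ± 0.460 and 1.93 ± 0.473. Txk had a ratio of 0.386 ± 0.160 in pericytes and 0.324 ± 0.0915 in SMCs, and Themis, with 0.0730 ± 0.0333 and 0.127 ± 0.0422, differed most of the 7 as a fold of its means. Among the 13609 genes whose mean reached 1 FPKM, the CD3 chains left out, 5.14% overlapped in this ratio and 94.4% were higher in every SMC library, since the CD3 chains were far lower there.

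Fyn and Lcp2 were the 2 of the 9 genes whose ratio to the CD3 chains was higher in every SMC library. The same held for 94.4% of the 13609 genes. For Fyn the ratio was 0.0518 to 0.0683 in pericytes and 0.806 to 2.25 in SMCs, and the mean was 24.8-fold higher in SMCs. For Lcp2 it was 0.206, 0.0937, 0.208 and 0.174 in pericytes, and the mean was 9.38-fold higher in SMCs, whose libraries lay close together (SD 0.116). In the SMC libraries, Fyn and Lcp2 thus had levels near that of Lck, while in pericytes they had a small fraction of it. Endothelial markers (4 of 7) and fibroblast markers (6 of 7, with Dcn the other way) were called higher in the same SMC libraries. The macrophage list (2 of 7 called, C1qa and Mrc1) and the platelet list (2 of 6 tested, Pf4 and Itga2b) were mixed. Cd68 had a log2 fold change of 0.11, and the median of the platelet list was 0.05. The part of these cell types in the ratios was not tested.

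**Figure D4:**
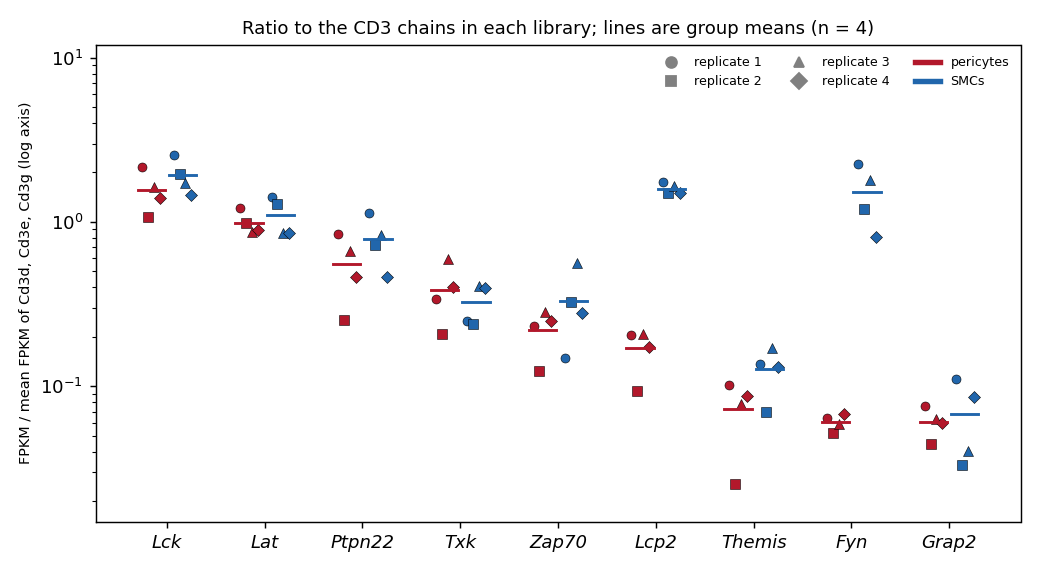
FPKM of each of the 9 genes divided by the mean FPKM of Cd3d, Cd3e and Cd3g in the same library (log axis), for pericytes (red) and SMCs (blue), with lines for group means. The groups overlap for 7 genes, and Lcp2 and Fyn are 9.38-fold and 24.8-fold higher in SMCs. Of 13609 genes, 94.4% were higher in every SMC library in this ratio.

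Among pericyte libraries, the spread was smallest for Grap2 (coefficient of variation 10.6%), Lcp2 (12.5%) and Lck (14.2%), and largest for Txk (31.9%) and Lat (34.1%). Pericyte replicate 2 held both extremes: Lat was 1.79 times the mean of the other pericyte libraries there, Fyn 1.44 times, Ptpn22 0.691 times and Themis 0.509 times. Lat has the shortest longest transcript of the 9 in GENCODE (1239 nt) and Themis the longest (5082 nt). Over all genes whose mean reached 1 FPKM, log2(FPKM + 1) in replicate 2 minus the mean of the other 3 pericyte libraries had a median of 0.95 for 1514 genes under 1000 nt, 0.58 for 2776 genes from 1000 to 2000 nt, -0.04 for 5403 genes from 2000 to 4000 nt and -0.45 for 3895 longer genes. Fyn (3562 nt, 0.50) and Grap2 (3158 nt, 0.24) were higher in replicate 2 than the median of their length class, and Ptpn22 (2757 nt, -0.50) was lower. The CD3 chains have transcripts of up to 1436 nt, and their mean was 437 FPKM in replicate 2 and 228 to 261 FPKM in the other pericyte libraries. Divided by it, 8 of the 9 genes had their lowest pericyte ratio in replicate 2. How many of all genes did so was not counted, so whether this is particular to the 9 is not known. The part of transcript length in these values was not tested.

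**Figure D5:**
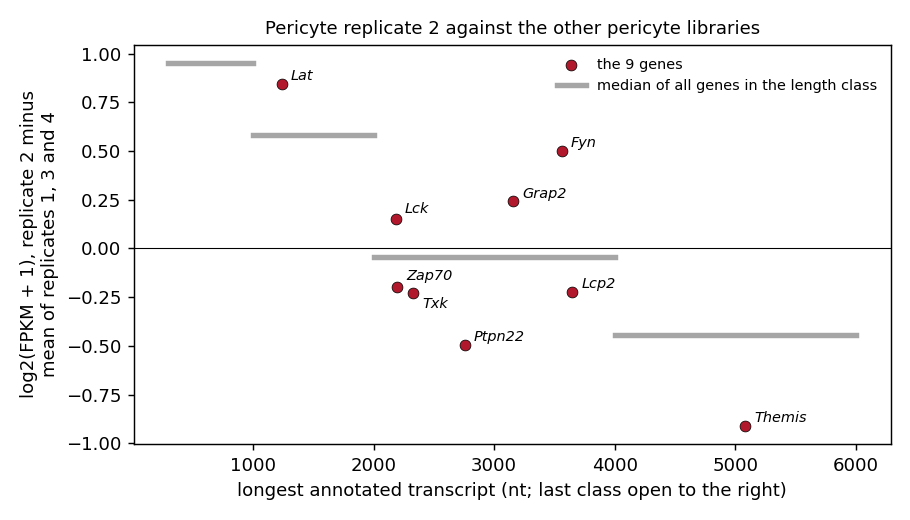
Log2(FPKM + 1) in pericyte replicate 2 minus the mean of pericyte replicates 1, 3 and 4 for each of the 9 genes, against the length of the longest annotated transcript (nt), with grey bars for the median of all genes in 4 length classes. Lat lies at 0.85, Themis at -0.91, and the medians fall from 0.95 to -0.45.

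By the Euclidean distance of log2(FPKM + 1) over the 8 libraries among 13603 genes whose mean reached 1 FPKM, the 5 closest to Lck were Cd2 (0.61), a T cell adhesion molecule, Cd69 (0.96), a lymphocyte activation marker, Cd3g (1.01), Trbc1 (1.15), a constant gene of the T cell receptor, and Ms4a4b (1.39). The 5 closest to Fyn were Ccdc28a (0.72), Cenpq (0.78), a kinetochore protein, Crlf2 (0.80), a cytokine receptor chain, Gm10159 (0.86) and Gm13654 (0.86). For both genes the measure covers level and difference at once over 8 libraries in 2 groups.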

How the data were processed

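RNAseq of pericytes and SMCs, 4 libraries each (all 8 labelled as 1 batch), was analysed from the FPKM table that the authors deposited. Per the labels and the study's methods, sorted-cell RNA was amplified with a SMART-Seq ultra-low input kit, made into Nextera XT libraries, checked with FastQC and aligned by the authors to NCBI Build 37 with Bowtie2 and TopHat and an Ensembl annotation. The program that computed FPKM and the strand setting are not given in the sources used here. The replicates were called biological by the study and pooled several sorts each.

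Log2(FPKM + 1) of 27414 genes above 0 FPKM in at least 1 library was tested with limma 3.58.1 in R 4.3.3 (the study's methods name limma without further settings), with Benjamini-Hochberg adjustment over all of them (q value). Depth relative to the other libraries came from values under 0.3 FPKM. For gene pairs, exact permutation tests (scipy 1.17.1, two-sided) were used, with adjustment over 8 pairs. Of the 37979 identifiers, 37195 were found in the mouse annotation GENCODE M1 (Ensembl release 65), from which positions and starts were taken. The sequence came from the genome of the same build. Of 154 genes on the lists, 152 were found by symbol, 1 by an older symbol from RefSeq, and Themis2 was not. Some listed genes enter the counts and are not reported by name here. The code was tested on simulated data.

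The text names the 9 genes, members of the lists, 1 paralogue per gene, the 5 genes nearest to Lck and Fyn, and genes behind the sort. The genes and lists were chosen with earlier results of these data known. Genes overlapping Fyn and Ptpn22, the length classes and the shares of all genes against the 8 relatives were chosen after values were seen. The alternatives tried changed the pseudocount to 0.1, required 1 FPKM in 4 or more libraries, and used 3 scalings, the replicate number as a block, replicates 1 and 2 against 3 and 4 as a covariate, an intensity trend and each library left out. Flow cytometry, staining and brain data were not analysed here.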

Additional observations from a re-analysis of the deposited data

Results flagged for a closer look

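Of 52 sets of 4 libraries examined (levels of the 9 genes, their ratios to the CD3 chains and the differences within 8 pairs, in each group), 1 had a library far from the other 3. Zap70 had a log2(FPKM + 1) of 0.53 in SMC replicate 1, where the other SMC libraries had 1.34 to 1.44, and the gap to them was 0.889 of the whole range, above Dixon's critical value for 4 values. Chance alone would mark about 1 in 20 such sets.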

How the results depend on the processing

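Under 16 alternatives (8 settings and 8 libraries left out in turn), 8 of the 9 genes were called higher in pericytes and 0 in SMCs, and each of the 9 kept its direction and a limma q value below 0.05 (highest 0.00793, for Fyn with the replicate block). The pathway count of 37 stayed between 36 and 38, and 8 to 10 paralogues were called higher in pericytes. A pseudocount of 0.1 raised the genes called higher in SMCs from 728 to 1421 and the paralogues called there from 1 to 2, and moved the log2 fold change of Grap2 from 3.83 to 5.62 and of Themis from 3.70 to 4.99, since these genes have low FPKM in SMCs. With libraries left out, 0 to 1 paralogues were called higher in SMCs. Scaling to a common sum (TPM) moved the median log2 fold change of 13612 genes from 0.05 to -0.16, and that of Fyn to 1.29.

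Same-numbered libraries were not treated as pairs, since the labels give them no shared source and their deviations correlated at 0.0794 to 0.474, 1 of 4 pairs lying under 0.1 and 5 of 8 libraries being closest to their own number. With the replicate block limma again called 8 of the 9 genes. Cd4 (limma q = 0.0317 against 0.0747 without the block) was then called higher in pericytes, and Pdgfrb (0.00601 against 0.0973) higher in SMCs. Of the 10 pericyte markers, 7 were lower in pericytes at a q value below 0.05 with the block and 2 without it. Of the 7 endothelial markers, 5 were called higher in SMCs with the block and 4 without it (Kdr and Tie1 gained, Cldn5 lost). Paired sign flips called 0 of the 8 gene pairs, with a smallest possible p of 0.125, so this says nothing of their stability. Leaving out a library allows no p below 0.0571 in these pairs: 7 shifts kept their direction, and that of Lcp2 against Blnk ranged from -0.50 without SMC replicate 3 to 0.18 without SMC replicate 4, against -0.14 with all libraries. The cause was not tested. FPKM gives no read counts, so the error of values under 1 FPKM, as for Grap2 and Themis in SMCs, is known only from the spread.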
